A study of Mus musculus with 6 samples.

Results

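The nuclear-encoded protein subunits of the 5 complexes of oxidative phosphorylation were followed across 6 arrays of 3T3-L1 adipocytes, fat cells grown in culture from a mouse preadipocyte line. Members were chosen by symbol alone: genes named as NADH dehydrogenase (Nduf), succinate dehydrogenase (Sdh), ubiquinol-cytochrome c reductase (Uqcr, with Cyc1), cytochrome c oxidase (Cox4 to Cox8) or ATP synthase (Atp5) subunits. Cox7a1 and Cox8b were left out of the choice. In all, 80 of the 18194 genes with a named probe set matched. Of these, 78 are structural subunits, namely 33 of complex I, 4 of complex II, 9 of complex III, 15 of complex IV (with Ndufa4 placed there) and 17 of complex V. The other 2 are Cox7a2l, a factor of respiratory supercomplexes, and Ndufa4l2, a paralog of Ndufa4. Detected means, by convention, 6.55 log2 units or more (the table's median) on 1 or more arrays. By it 75 structural subunits were detected, and Ndufb4, Cox6b2 and Cox7b2 were not. Each of these rests on 1 probe set, and probe sets with several symbols were not used. Absence of the transcript from the cells therefore does not follow.

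After hormonal induction of differentiation, the cells received one of the following for 5 days, always with insulin. In the first experiment this was ethanol at 0.1%, ritonavir at 20 µM or tenofovir at 1 µM. In the second experiment ritonavir at 20 µM was combined with DMSO at 0.1%, with c9,t11-CLA at 100 µM or with t10,c12-CLA at 100 µM. Ritonavir is an HIV protease inhibitor, tenofovir a nucleotide analog that inhibits reverse transcriptase, and the CLA isomers are forms of conjugated linoleic acid whose conjugated double bonds differ in position and in cis-trans order. Each group was 1 array of RNA pooled from 4 replicate experiments, so no spread between replicates exists and no test was possible. Precision is limited by having 6 arrays in all. The DMSO array of ritonavir and both CLA arrays belong to the second experiment. Where any of them is set against an array of the first, vehicle, CLA and experiment cannot be told apart. Whether the second experiment's arrays also carried the vehicle of ritonavir is not clear from the labels.

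Oxidative phosphorylation is carried out in the inner mitochondrial membrane. Complexes I and II pass electrons from NADH and succinate to coenzyme Q, complex III passes them to cytochrome c, and complex IV to oxygen. Complexes I, III and IV pump protons, and complex V, the ATP synthase, uses the proton gradient to make ATP. Complexes I, III, IV and V also hold subunits encoded in mitochondrial DNA, whereas complex II is wholly nuclear-encoded. Mitochondria multiply as preadipocytes mature, and in white fat cells respiration feeds lipogenesis and fatty acid esterification. Nuclear respiratory factor 1 (NRF1), the ETS factor GABPA, YY1 and the estrogen-related receptors (ERR) are known to bind promoters of many of these genes.

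The promoter windows of 6 subunits are shown, taken from the genes that lead the comparisons described further on. Other leading genes with a window, such as Ndufb8 and Uqcrh, are not printed. The sequences are RefSeq's on build GRCm38.p6, from 250 bases before to 50 bases after the annotated start, 5′ to 3′ along the gene. Windows were found for 60 of the 75 detected subunits. Capitals mark every match, on either strand, to GCGCA, any base and GCGC in a row (NRF1), CCGGAAG (ETS), AAGATGGC (YY1) or CAAGGTCA (ERR). Uqcrfs1 (chr13:30545267-30545566, minus strand) encodes the Rieske iron-sulfur protein of complex III. Sdha (chr13:74350191-74350490, minus strand) encodes the flavoprotein of complex II. Uqcrc1 (chr9:108936398-108936697, plus strand) encodes a core protein of complex III, and Ndufs3 (chr2:90904672-90904971, minus strand) a core subunit of complex I. Atp5pb (chr3:105959214-105959513, minus strand) encodes subunit b of the stalk of ATP synthase and Atp5e (chr2:174464052-174464351, minus strand) its epsilon subunit.
Uqcrfs1: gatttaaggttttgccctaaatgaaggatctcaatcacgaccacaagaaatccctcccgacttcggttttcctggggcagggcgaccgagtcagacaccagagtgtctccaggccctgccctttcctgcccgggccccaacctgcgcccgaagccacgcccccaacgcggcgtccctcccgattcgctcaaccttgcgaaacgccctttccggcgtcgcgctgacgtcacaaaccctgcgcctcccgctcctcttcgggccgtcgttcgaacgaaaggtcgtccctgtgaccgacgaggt
Sdha: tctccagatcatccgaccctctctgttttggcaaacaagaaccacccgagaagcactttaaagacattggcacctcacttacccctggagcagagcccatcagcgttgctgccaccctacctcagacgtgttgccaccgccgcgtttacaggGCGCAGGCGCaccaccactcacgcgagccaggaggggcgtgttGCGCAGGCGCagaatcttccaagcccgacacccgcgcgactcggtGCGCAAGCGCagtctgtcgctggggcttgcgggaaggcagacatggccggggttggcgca
Uqcrc1: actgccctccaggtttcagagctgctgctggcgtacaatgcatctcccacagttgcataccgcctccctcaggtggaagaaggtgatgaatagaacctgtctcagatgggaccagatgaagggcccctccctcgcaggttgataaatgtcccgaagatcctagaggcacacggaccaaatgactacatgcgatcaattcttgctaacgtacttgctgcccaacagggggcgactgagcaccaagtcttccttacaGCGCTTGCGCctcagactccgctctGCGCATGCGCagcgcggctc
Ndufs3: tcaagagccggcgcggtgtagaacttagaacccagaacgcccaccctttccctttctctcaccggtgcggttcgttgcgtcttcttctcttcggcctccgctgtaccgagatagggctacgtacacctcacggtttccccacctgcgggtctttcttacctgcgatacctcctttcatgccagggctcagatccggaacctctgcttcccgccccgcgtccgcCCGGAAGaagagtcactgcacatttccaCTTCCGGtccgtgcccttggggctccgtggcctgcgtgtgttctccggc
Atp5pb: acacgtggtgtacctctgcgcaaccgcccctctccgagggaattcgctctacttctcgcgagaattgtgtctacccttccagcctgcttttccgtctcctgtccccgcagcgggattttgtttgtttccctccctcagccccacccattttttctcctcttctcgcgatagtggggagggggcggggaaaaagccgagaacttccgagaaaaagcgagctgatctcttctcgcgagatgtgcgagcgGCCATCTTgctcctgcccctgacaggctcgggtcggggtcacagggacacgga
Atp5e: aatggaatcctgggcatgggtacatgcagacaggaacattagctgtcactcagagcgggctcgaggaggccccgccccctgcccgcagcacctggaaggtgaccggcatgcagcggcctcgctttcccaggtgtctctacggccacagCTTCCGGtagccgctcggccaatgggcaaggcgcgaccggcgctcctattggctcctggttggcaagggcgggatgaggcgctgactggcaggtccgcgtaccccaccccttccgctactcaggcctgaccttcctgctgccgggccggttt

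The Sdha window held 3 matches to the NRF1 motif, which begin at bases 153, 196 and 241 of the window. That of Uqcrc1 held 2, at bases 256 and 281, both after the annotated start. The Ndufs3 window held the ETS motif at bases 224 and 252, the Atp5e window at base 149, and the Atp5pb window the YY1 motif at base 248. None of these letters stood in the Uqcrfs1 window.

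Among the 60 subunits with a window, 14 (23.3%) held the NRF1 motif, beside 11.1% of detected genes and 5.19% of all genes with a window. The ETS motif stood in 17 (28.3%), beside 19.3% of detected genes and 9.93% of all genes. Its longer form CCGGAAGT, which contains it, stood in 5 (8.33%), beside 8.75% of detected genes. The YY1 motif stood in 9 (15%), beside 5.16% and 3.19%, and the ERR motif in 4 (6.67%), beside 1.41% and 1.76%. The GC box GGGCGG was found in 24 (40%), against 67.3% of detected genes, TATAAA in 6 (10%) against 9.13%, and CCAAT in 24 (40%) against 42.7%. These are matches of letters and no measure of binding.

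Most subunit probe sets read near the top of the array's scale, which does not rank transcripts of different genes: 44 of 75 had a mean of at least 13 log2 units over the 6 arrays, beside 2.42% of all detected genes. A further 24 lay between 12 and 13, and 7 under 12. Only Ndufb1, Cox4i2, Cox6a2, Cox7c and Cox8c had a mean under 10. The mean over the 75 subunits was 12.84 log2 units with ethanol, 12.90 with tenofovir, 12.57 with ritonavir, 12.98 with ritonavir and DMSO, 12.97 with ritonavir and c9,t11-CLA, and 12.72 with ritonavir and t10,c12-CLA. The ritonavir array was thus the lowest and the array of ritonavir with t10,c12-CLA the next. Gene by gene, 59 of 75 subunits had their lowest value on the ritonavir array, beside 27.5% of all detected genes. The lowest value of 8 others stood on the t10,c12-CLA array, beside 12.3% of all detected genes. The highest value stood on the DMSO array for 33, beside 13.2% of all detected genes, and on the c9,t11-CLA array for 19, beside 10.3%. It stood on the tenofovir array for 14, near the 14.0% of all genes. In 14 subunits, such as Sdha, Uqcrfs1, Ndufs1 and Cyc1, all 4 arrays with ritonavir were below both without it, beside 22.6% of all detected genes. In 2, Cox6a2 and Cox7c, all 4 were above, beside 28.6%.

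**Figure D1:**
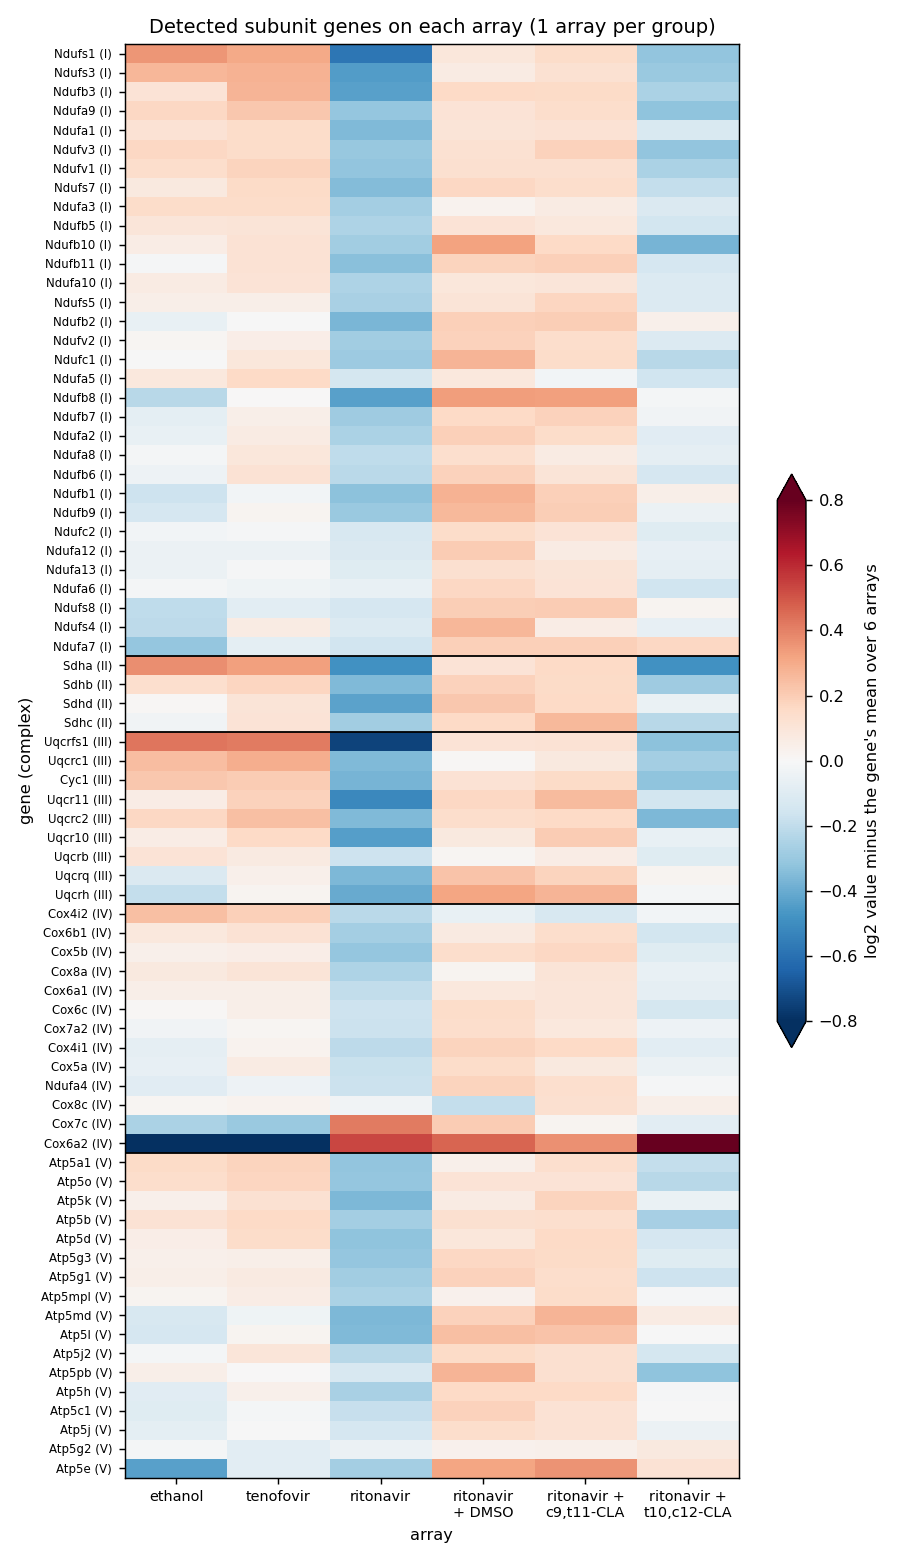
Each row is 1 of the 75 detected subunit genes with its complex in brackets, each column 1 array, and the colour is the log2 value minus the gene's mean over the 6 arrays. The ritonavir column is blue for most rows, the t10,c12-CLA column paler blue, and Cox6a2 stands out with the opposite colours.

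Ritonavir alone against ethanol asks what the protease inhibitor leaves of the respiratory chain's transcripts in maturing adipocytes. Most subunits were slightly lower: 69 of 75 were below ethanol, beside 49.8% of all detected genes, and the median difference was -0.28 log2 units (SD over the subunits 0.34), where all detected genes had a median of 0.00. The shift of the median equals 1.21-fold. Few subunits moved far. At least 1.5-fold lower were 6 (Uqcrfs1, Ndufs1, Sdha, Ndufs3, Uqcrc1 and Cyc1), beside 12.4% of all detected genes, and at least 1.5-fold higher were 2 (Cox6a2 and Cox7c), beside 12.4%. The 6 of 75 is a smaller share than that of all genes, so the subunits differed by their common direction, not by size.

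**Figure D2:**
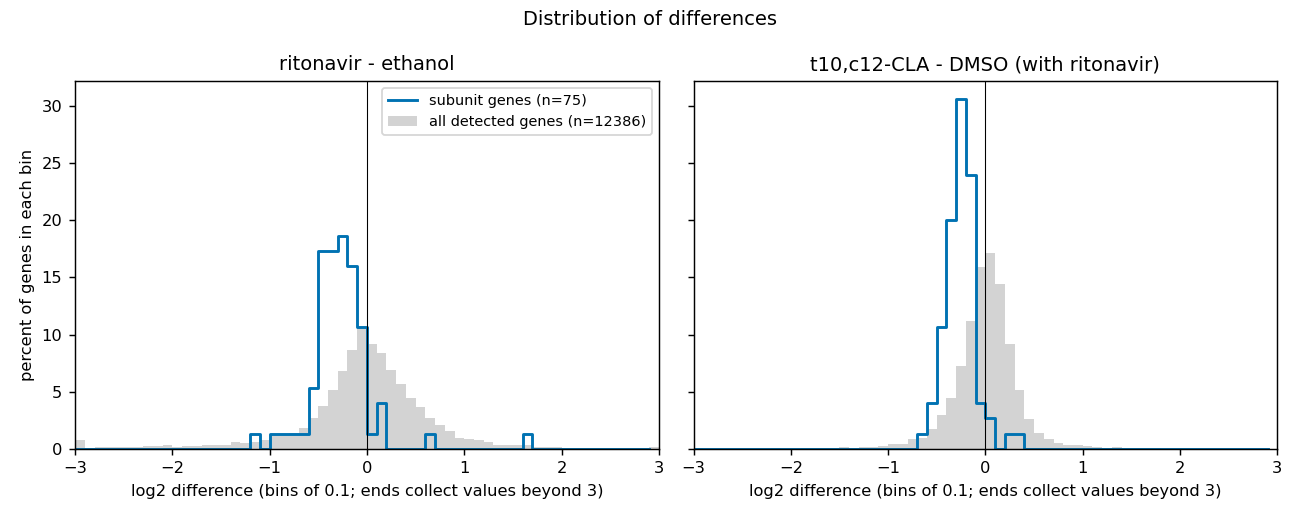
The blue outline gives the share of the 75 subunit genes and the grey area that of all 12386 detected genes in bins of 0.1 log2 units, for ritonavir against ethanol and for t10,c12-CLA against DMSO. In both panels the subunits form a narrow peak left of 0 while all genes centre on 0.

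The complexes did not have the same median. Complex III stood at -0.52 log2 units (9 subunits, all below ethanol) and complex II at -0.46 (4 of 4 below). Complex I stood at -0.29 (29 of 32 below), complex V at -0.23 (16 of 17 below) and complex IV at -0.14 (11 of 13 below). Over all complexes the 17 measured subunits of a chosen list, called core here, had a median of -0.44. The 58 subunits outside the list had -0.23. Most of the 17 carry iron-sulfur centres, flavin, haem or active sites. The list was chosen with earlier results of these data known. It holds all 4 subunits of complex II, so its median and those of the complexes overlap in genes. It also holds Cox4i1, Cox5a and Cox5b of complex IV, and it leaves out Uqcrc1 and Uqcrc2 of complex III. Not every listed subunit was low: Ndufs8 of complex I was at 0.07 and Cox5a at -0.12. These are counts and medians over genes, with no test of the difference between complexes.

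Uqcrfs1 (NCBI gene 66694), the Rieske protein that hands electrons from ubiquinol towards cytochrome c1, read 13.09 log2 units with ethanol, 13.08 with tenofovir, 11.93 with ritonavir, 12.77 with ritonavir and DMSO, 12.78 with c9,t11-CLA and 12.34 with t10,c12-CLA. It was the lowest of the 75 with ritonavir alone (-1.17 log2 units, 2.24-fold lower) and the sole subunit at least 2-fold lower, beside 6.39% of all detected genes. All 4 arrays with ritonavir lay below both arrays without it. Cyc1, which encodes that cytochrome c1, read 13.43, 13.41, 12.84, 13.33, 13.36 and 12.89 in the same order. Both it and Uqcrc1, which read 13.60 with ethanol, were lowest with ritonavir, at -0.59 for Cyc1 and -0.60 for Uqcrc1. Next lowest was t10,c12-CLA, where Uqcrc1 read 13.08. The other core protein, Uqcrc2, was at -0.52. The smaller supernumerary subunits spread from Uqcr11 at -0.57 and Uqcr10 at -0.50 to Uqcrb at -0.28, Uqcrq at -0.25 and Uqcrh, the hinge protein, at -0.21.

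In complex I, Ndufs1 (NCBI gene 227197), the largest iron-sulfur subunit, read 12.25 with ethanol, 12.20 with tenofovir, 11.32 with ritonavir, 11.99 with ritonavir and DMSO, 12.05 with c9,t11-CLA and 11.58 with t10,c12-CLA, a ritonavir difference of -0.93 log2 units. Ndufs3, a core subunit of the arm that reaches into the matrix, read 13.59, 13.60, 12.88, 13.39, 13.44 and 13.02, a difference of -0.71. As for Uqcrfs1, all 4 arrays with ritonavir were below both without it. Ndufb3, an accessory subunit, followed at -0.55. The other core subunits were Ndufv1, which binds the flavin, at -0.46, Ndufs7 at -0.43, Ndufv2 at -0.30 and Ndufs8 at 0.07. At the upper end stood the accessory subunits Ndufa7 at 0.16 and Ndufs4 at 0.10. Ndufa7 read 12.80 with ethanol, 13.03 with tenofovir, 12.95 with ritonavir and between 13.28 and 13.30 on the other 3 arrays.

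Sdha (NCBI gene 66945), where succinate is oxidised in a step shared by the TCA cycle and the respiratory chain, read 12.87 with ethanol, 12.83 with tenofovir, 12.02 with ritonavir, 12.61 with ritonavir and DMSO, 12.66 with c9,t11-CLA and 12.02 with t10,c12-CLA. It was thus equally low on the arrays of ritonavir alone and of ritonavir with t10,c12-CLA. The ritonavir difference was -0.85 log2 units, and another detected probe set of the gene gave -0.59. The iron-sulfur subunit Sdhb was at -0.49, and the membrane anchors Sdhd and Sdhc at -0.44 and -0.25.

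**Figure D3:**
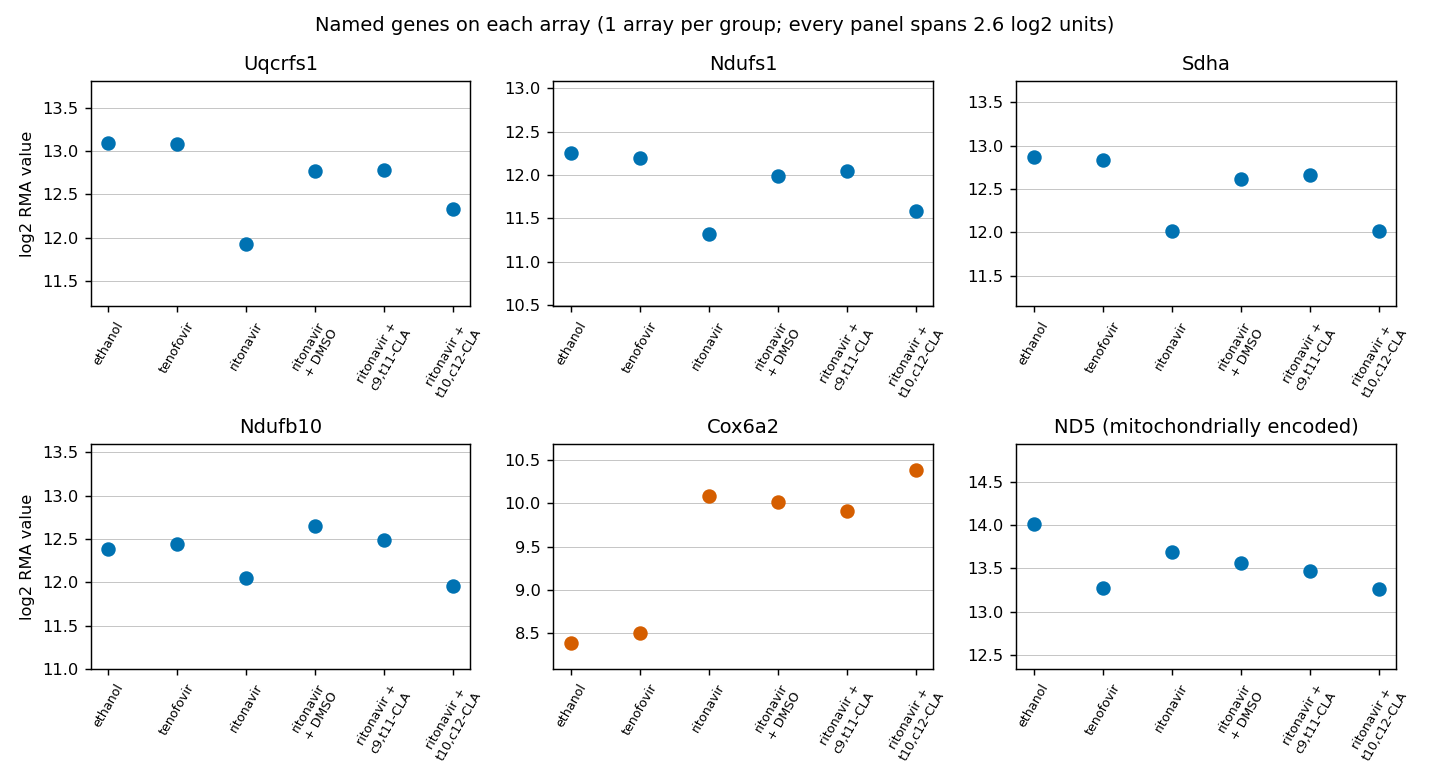
Log2 values of 6 genes on each of the 6 arrays, 1 point per array, with axes of equal length. Uqcrfs1, Ndufs1 and Sdha are lowest or level lowest with ritonavir, Ndufb10 is lowest with t10,c12-CLA, Cox6a2 is higher on all 4 arrays with ritonavir, and the mitochondrially encoded ND5 is highest with ethanol.

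In complex V, Atp5a1 and Atp5b, the alpha and beta subunits of the catalytic head, were at -0.47 and -0.39 log2 units. Atp5a1 read 13.48 with ethanol and 13.01 with ritonavir, and Atp5b 14.08 and 13.70. Further detected probe sets of Atp5a1 gave -0.25 and 0.23, so that its probe sets differed in sign. The stalk subunit Atp5o was at -0.45 and Atp5k, of the membrane part, at -0.40. Atp5e was the 1 subunit of the complex above ethanol (0.16). Of the 3 genes for the same c-ring subunit, Atp5g1 (-0.33) and Atp5g3 (-0.35) differed from ethanol and Atp5g2 (-0.03) hardly did. A second detected probe set of Atp5g2 stood at 1.15, so that its probe sets disagreed. That probe set read 6.39 with ethanol, under the detection level, and 7.53 with ritonavir, so its difference has no exact size.

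Complex IV held both the smallest shift and the largest exception. Its common nuclear subunits Cox4i1 (-0.14), Cox5a (-0.12), Cox6c (-0.18), Cox7a2 (-0.14) and Ndufa4 (-0.08) were close to ethanol. Cox5b (-0.35), Cox6b1 (-0.36) and Cox8a (-0.32) were further below. Cox6a2 (NCBI gene 12862), the heart and skeletal muscle form of subunit VIa, read 8.39 with ethanol, 8.50 with tenofovir, 10.08 with ritonavir, 10.01 with ritonavir and DMSO, 9.91 with c9,t11-CLA and 10.38 with t10,c12-CLA. All 4 arrays with ritonavir lay at least 2-fold above both without it, a pattern that 83 (0.67%) of all detected genes had. The ritonavir difference was 1.69 log2 units (3.24-fold), the sole subunit at least 2-fold higher, beside 4.56% of all detected genes. A second probe set gave 6.75, 6.69, 7.80, 7.90, 7.84 and 8.01 in the same order. The form of most tissues, Cox6a1, differed the other way (-0.24).

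Other paired forms of complex IV subunits did not share the pattern of Cox6a2. Cox4i2, the form linked to low oxygen, read 6.98 with ethanol and 6.52 with ritonavir, close to the detection level. Cox8c read between 8.68 and 8.99 on all 6 arrays. Cox7c, not one of these paired forms, was higher with ritonavir at low values. It read 6.76 with ethanol, 6.72 with tenofovir, 7.43 with ritonavir, 7.22 with DMSO, 7.03 with c9,t11-CLA and 6.93 with t10,c12-CLA. Another probe set of Cox7c was under the detection level on every array. Whether probe sets at such values read the gene's main transcript was not tested. Among the 8 muscle markers looked for, Myod1, Myog, Myh1, Myh6 and Tnnt2 were not detected, and the 3 detected (Ckm, Acta1, Des) had a median ritonavir difference of -0.29. The 2 matching genes that are no structural subunits stood at 0.36 (Cox7a2l) and -0.04 (Ndufa4l2). Cox7a1 and Cox8b, outside the choice of members, were lower with ritonavir than any subunit. They read 9.97 and 8.68 with ethanol and were under the detection level with ritonavir, so their differences have no exact size.

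**Figure D4:**
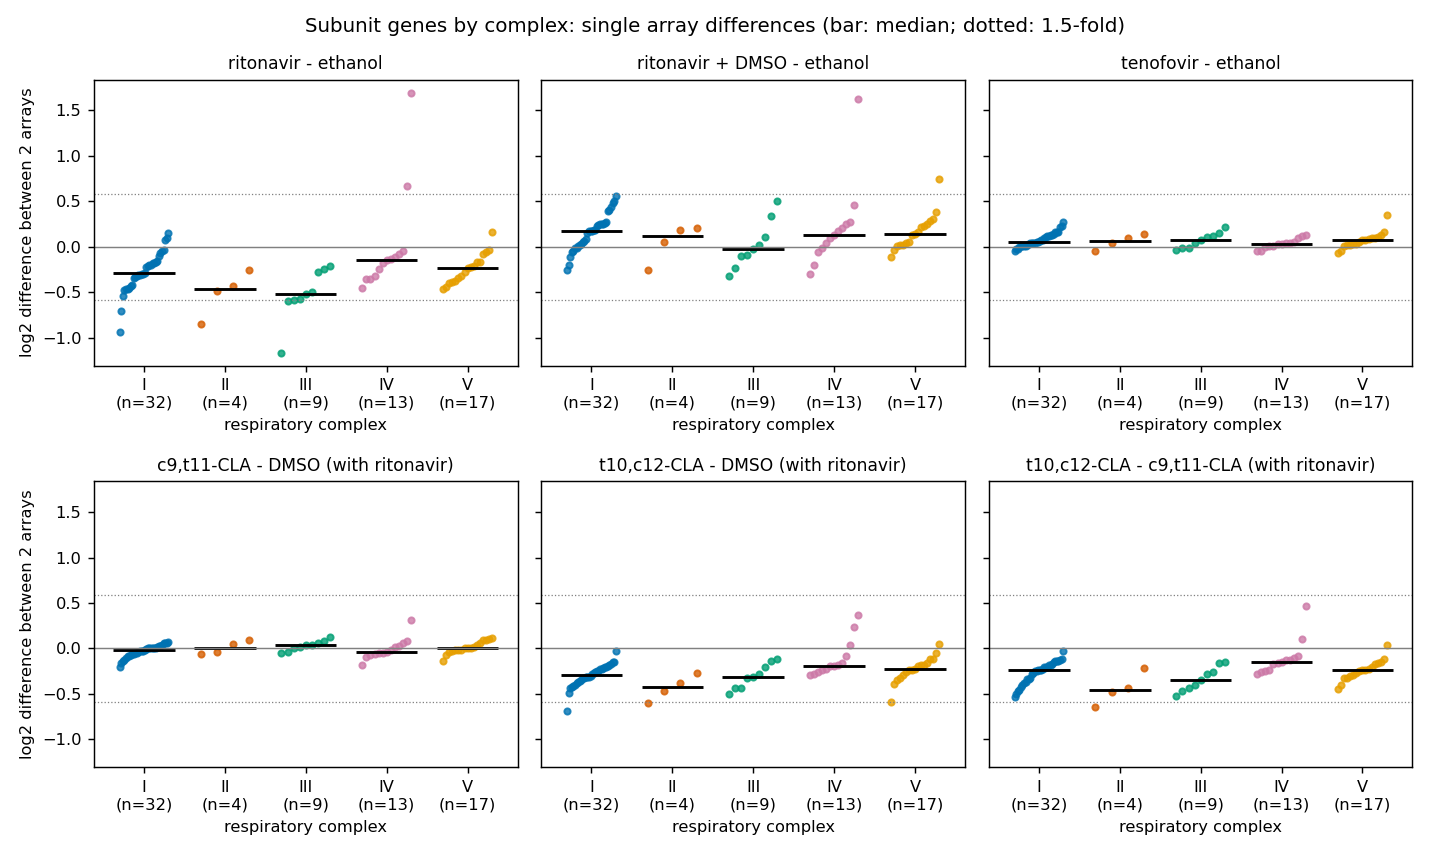
Each point is 1 subunit gene, placed by complex, and its height is the log2 difference between 2 arrays. Bars are medians and dotted lines mark 1.5-fold. With ritonavir alone the medians lie below 0 and lowest in complexes II and III, while the panel of c9,t11-CLA against DMSO is flat and that of t10,c12-CLA lies below 0 again.

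The ritonavir array of the second experiment did not repeat the lower values. With ritonavir and DMSO, 56 of 75 subunits were above ethanol, beside 52% of all detected genes, with a median of 0.14 log2 units (SD over the subunits 0.27). At least 1.5-fold lower were 0, beside 7.69% of all detected genes, and 2 were higher (Cox6a2 and Atp5e), beside 6.45%. By complex the medians were 0.17 (I), 0.12 (II), -0.03 (III), 0.13 (IV) and 0.14 (V). The lower end was still held by Uqcrfs1 (-0.32), Sdha (-0.26) and Ndufs1 (-0.26), along with Cox4i2 (-0.30). The upper end held Cox6a2 (1.62), Atp5e (0.75), Ndufb8 (0.56), Uqcrh (0.51) and Ndufa7 (0.50). Both comparisons share the ethanol array.

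Atp5e read 12.22 with ethanol, 12.57 with tenofovir, 12.38 with ritonavir, 12.97 with ritonavir and DMSO, 13.01 with c9,t11-CLA and 12.77 with t10,c12-CLA. Ethanol was its lowest array and the 3 arrays of the second experiment its highest. Ndufb8, an accessory subunit of the membrane arm, read 12.49, 12.71, 12.28, 13.05, 13.03 and 12.69 in that order. Another detected probe set of Ndufb8 gave -0.92 for ritonavir against ethanol, beside -0.21 for the one used. For the DMSO array against ritonavir alone it gave 1.28, beside 0.77. Set directly against each other, the DMSO array was above the array of ritonavir alone in 72 of 75 subunits, beside 50.9% of all detected genes, with a median of 0.41. In 13 subunits the gap reached 1.5-fold, beside 8.43%, with Uqcrfs1 (0.85), Ndufb8 (0.77) and Uqcrh (0.71) in front. The count was 7 after quantile normalization again and 7 with the lowess trend on mean expression removed. The arrays carry the same ritonavir dose, and differ in experiment and in the added DMSO. Whether they also differ in the vehicle of ritonavir itself is not clear from the labels.

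Markers of the adipocyte state moved along with these values. The mean of 13 mature adipocyte markers was 12.96 log2 units with ethanol, 12.98 with tenofovir, 9.40 with ritonavir, 12.11 with ritonavir and DMSO, 12.28 with c9,t11-CLA and 10.83 with t10,c12-CLA. With ritonavir alone 12 of the 13 were at least 1.5-fold lower, beside 12.4% of all detected genes. Adiponectin (Adipoq) read 14.79, 14.82, 10.18, 14.64, 14.67 and 13.08 in that order. The mean of 10 detected preadipocyte and fibroblast markers was highest with ritonavir alone (12.85) and otherwise lay between 11.32 and 11.85. The ritonavir and t10,c12-CLA arrays were thus lowest and next lowest for adipocyte markers as for subunits. On the DMSO array the adipocyte markers were below ethanol while the subunits were above it. The part of differentiation in the subunit values was not tested. In these bulk samples fewer mature cells and less transcript per cell cannot be told apart. Of 8 macrophage markers Adgre1, Ptprc, Itgam and Aif1 were not detected. The 4 detected had a median ritonavir difference of 0.18, from Csf1r at -0.19 to Cd68 at 1.83. With t10,c12-CLA against DMSO their median was 0.29, from Fcgr1 at -0.25 to Cd68 at 1.67. Cd68, which is lysosomal, read 6.87, 6.75, 8.71, 8.43, 8.11 and 10.10. Of 6 endothelial markers only Kdr was detected.

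Tenofovir against ethanol bears on a drug class known for effects on mitochondrial DNA. The nuclear-encoded subunits differed little in size: 63 of 75 were above ethanol, beside 46.3% of all detected genes, and the median was 0.05 log2 units (SD over the subunits 0.08), and 0 were 1.5-fold apart, beside 0.0969%. The complex medians ranged from 0.03 (IV) to 0.08 (V). The largest values were Atp5e (0.35), Ndufs4 (0.28) and Ndufa7 (0.23), and Uqcrfs1 (-0.01), Sdha (-0.04) and Ndufs1 (-0.05) were level with ethanol.

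The array also measured 1 of the 13 subunits that mitochondrial DNA encodes. ND5, a proton-pumping subunit of complex I, read 14.01 with ethanol, 13.28 with tenofovir, 13.69 with ritonavir, 13.56 with ritonavir and DMSO, 13.46 with c9,t11-CLA and 13.26 with t10,c12-CLA. Ethanol was the highest of the 6. The tenofovir difference of -0.74 log2 units ranked 1 from the lowest among all 12386 detected genes, while the nuclear-encoded subunits of the same complex had a median of 0.06. With t10,c12-CLA under ritonavir ND5 was as low as with tenofovir. It is 1 probe set on single arrays. Polrmt, the RNA polymerase that transcribes mitochondrial DNA, stood at -0.35 with tenofovir, and Tfam, which packages it, at 0.02. Polrmt was the lowest of 18 detected regulators of respiration genes. Their median was -0.003, with 9 below ethanol and 9 above. A link between Polrmt and ND5 was not tested.

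Under ritonavir the CLA isomers, both at 100 µM and for 5 days, were set against DMSO and against each other. With c9,t11-CLA the subunits matched DMSO closely: 38 were below it, beside 47.6% of all detected genes, and 37 above. The median was -0.00 log2 units (SD over the subunits 0.08), and 0 were 1.5-fold apart, beside 0.17% of all detected genes. The complex medians lay between -0.04 (IV) and 0.03 (III). The farthest were Cox8c (0.32) and Ndufs4 (-0.21), and both had a detected probe set nearer to 0 (0.12 for Cox8c, -0.06 and -0.03 for Ndufs4).

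With t10,c12-CLA 71 of 75 subunits were below DMSO, beside 47.1% of all detected genes, and the median was -0.26 log2 units. At least 1.5-fold lower were 3 (Ndufb10, Sdha and Atp5pb), beside 3.96%, and 0 were higher, beside 3.11%. Complex II stood lowest at -0.43, followed by III (-0.32), I (-0.29), V (-0.23) and IV (-0.19). The 17 subunits of the core list had a median of -0.37 and the other 58 of -0.23. All 32 detected subunits of complex I and all 9 of complex III were below DMSO. The 4 above it were Cox6a2 (0.37), Cox8c (0.23), Atp5g2 (0.04) and Cox4i2 (0.04).

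Ndufb10, an accessory subunit of the membrane arm of complex I, read 12.38 with ethanol, 12.44 with tenofovir, 12.05 with ritonavir, 12.65 with ritonavir and DMSO, 12.48 with c9,t11-CLA and 11.95 with t10,c12-CLA. Its DMSO difference (-0.69) was the largest of the 75, and unlike most subunits it was lowest with t10,c12-CLA. Atp5pb read 13.42, 13.37, 13.24, 13.64, 13.50 and 13.05, and it too was lowest there, by -0.59 against DMSO. A second detected probe set gave -0.44. Sdha was at -0.60 and its second probe set at -0.50. Uqcrc2 (-0.50) and Ndufc1 (-0.49) came next. Uqcrfs1, Ndufs1 and Ndufs3, the lowest 3 of complexes I and III with ritonavir alone, stood at -0.44, -0.41 and -0.37.

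Isomer against isomer, 72 of 75 subunits were lower with t10,c12-CLA than with c9,t11-CLA, beside 48.1% of all detected genes. The median was -0.24 log2 units (SD over the subunits 0.16). Sdha (-0.65) was the 1 subunit at least 1.5-fold lower, beside 4.96%. Ndufb10 (-0.53), Uqcrc2 (-0.52) and Ndufv3 (-0.50) followed. By complex the medians were -0.24 (I), -0.46 (II), -0.35 (III), -0.15 (IV) and -0.24 (V). The 3 subunits higher with t10,c12-CLA were Cox6a2 (0.47), Cox4i2 (0.11) and Atp5g2 (0.03). The isomers were 1 pair at matched dose and time, and with 1 array each the difference has no interval. It shares the t10,c12-CLA array with the comparison against DMSO.

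Against ethanol, the subunits had a median of 0.12 with ritonavir and c9,t11-CLA and of -0.13 with ritonavir and t10,c12-CLA. In the latter 53 of 75 were below ethanol, beside 46.2% of all detected genes. At least 1.5-fold lower were 3 (Sdha at -0.85, Uqcrfs1 at -0.75 and Ndufs1 at -0.67), beside 10.4%. Cox6a2, at 1.99, was the 1 subunit 1.5-fold higher, beside 9.65%. Most subunits were nonetheless above the array of ritonavir alone with t10,c12-CLA: 66 of 75, beside 55.1% of all detected genes. All of these comparisons run across the first and second experiments.

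The comparisons of ritonavir with ethanol and of t10,c12-CLA with DMSO share no array. Over the 75 subunits their differences had a Pearson r of 0.556 and a Spearman rho of 0.437, and over all detected genes 0.536 and 0.399. Over the 70 subunits with a mean of at least 10 log2 units r was 0.464 and rho 0.440, so leaving out Cox6a2 and the 4 other dim genes lowered r and not rho. These describe genes on the same 4 arrays. The difference showed little relation to brightness among the 70: r was 0.105 for ritonavir and 0.270 for t10,c12-CLA.

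**Figure D5:**
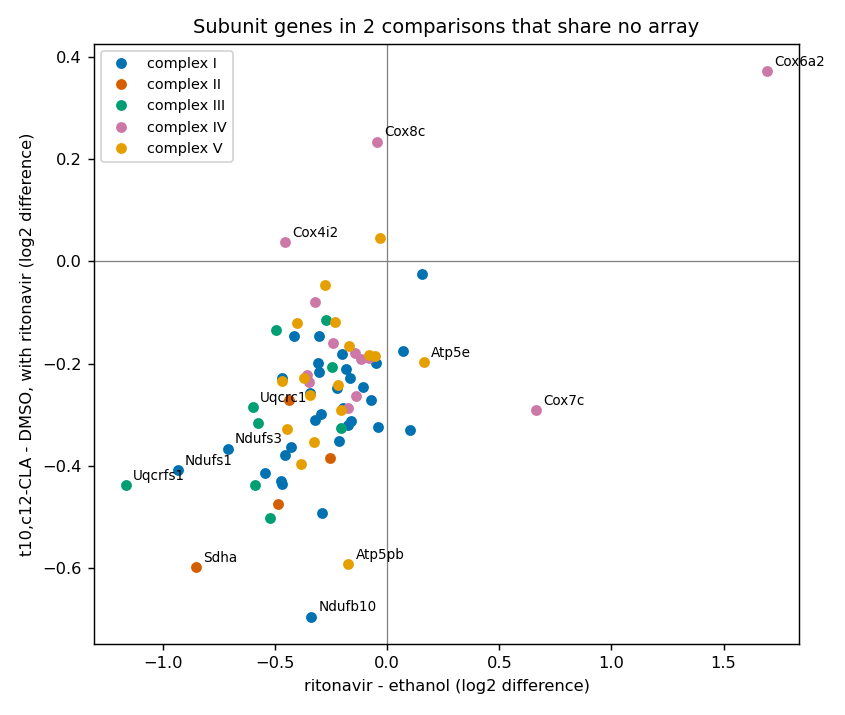
Each point is 1 of the 75 subunit genes, coloured by complex, with the log2 difference of ritonavir from ethanol across and that of t10,c12-CLA from DMSO upward. Most lie in the lower left, and Cox6a2 lies alone at the upper right.

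The subunits were also split by promoter motif. With ritonavir the 14 with the NRF1 motif had a median of -0.27 log2 units (SD over genes 0.23) and the 46 without it -0.30 (0.27). For the ETS motif the medians were -0.23 (17 genes) and -0.31 (43), and for YY1 -0.21 (9) and -0.31 (51). With t10,c12-CLA against DMSO the medians with and without were -0.23 and -0.26 for NRF1, -0.20 and -0.27 for ETS, and -0.35 and -0.24 for YY1. These gaps were not tested. Of the windows printed, that of Uqcrfs1, the lowest with ritonavir, held no match, and that of Sdha held the most.

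Genes that serve the chain did not all follow its subunits. The 17 electron carriers and coenzyme Q synthesis genes had a median of -0.51 with ritonavir, 0.07 with ritonavir and DMSO against ethanol, and -0.35 with t10,c12-CLA against DMSO. With ritonavir 7 of 17 were at least 1.5-fold lower and 0 higher, beside 12.4% each way of all detected genes. They include Coq8a (-1.57), a kinase-like protein of coenzyme Q synthesis, and Etfb and Etfdh (-1.43 and -1.20), which deliver electrons from fatty acid oxidation to coenzyme Q. Cycs, cytochrome c itself, read 14.01 with ethanol, 13.91 with tenofovir, 13.45 with ritonavir, 14.01 with DMSO, 13.79 with c9,t11-CLA and 13.41 with t10,c12-CLA. It was low on the same pair of arrays as the core subunits.

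The 49 detected assembly factors, chaperones that build the complexes without staying in them, had a ritonavir median of -0.01. Of these 6 were at least 1.5-fold lower and 2 higher, beside 12.4% each way of all detected genes, so the count lower is near that background. The ends were Atpaf2 (-1.31), which assembles the head of ATP synthase, and Acad9 (-1.12), needed for complex I, against Uqcc2 (1.16), a complex III factor, and Sco2 (0.66), a copper chaperone of complex IV. Uqcc2 read 12.02 with ethanol, 12.27 with tenofovir, 13.18 with ritonavir, 13.09 with DMSO, 13.06 with c9,t11-CLA and 13.39 with t10,c12-CLA. It was higher on all 4 arrays with ritonavir than on both without it, as were 28.6% of all detected genes. Against ethanol the DMSO array had a median of 0.29 for these factors, and t10,c12-CLA against DMSO -0.22, with Foxred1, a complex I factor, lowest at -0.89. Atpif1, the inhibitor protein of ATP synthase, read 10.87 with ethanol, 10.98 with tenofovir, 11.65 with ritonavir, 11.59 with DMSO, 11.37 with c9,t11-CLA and 11.65 with t10,c12-CLA. It too was above both arrays without ritonavir, by 0.78 with ritonavir alone.

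Of 7 detected genes of ATP export and phosphate import, Slc25a5, an ADP/ATP carrier, was lowest with ritonavir (-0.71), while its paralog Slc25a4 was at 0.19 and the list's median at -0.06. The TCA cycle feeds the chain with NADH and succinate. Its list, which also holds genes of pyruvate entry such as Pcx, Pdha1 and Pdhb, had a larger shift than the subunits. With ritonavir 17 of 17 detected genes of the list were below ethanol, beside 49.8% of all detected genes, with a median of -0.64. At least 1.5-fold lower were 10, beside 12.4%. The lowest of the list was Pcx, pyruvate carboxylase, which is not an enzyme of the cycle itself, at -1.90. With t10,c12-CLA against DMSO the median was -0.44. The 76 mitochondrial ribosomal proteins had medians of -0.15, 0.27 and -0.16 for ritonavir, for ritonavir with DMSO (both against ethanol) and for t10,c12-CLA against DMSO. The 42 detected cytosolic ribosomal proteins had 0.33, 0.15 and 0.10.

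The regulators known to act on these genes differed among themselves. Ppargc1a, the coactivator PGC-1alpha, read 8.47 with ethanol, 8.51 with tenofovir, 10.50 with ritonavir, 10.25 with DMSO, 10.13 with c9,t11-CLA and 9.80 with t10,c12-CLA. It was above both arrays without ritonavir on all 4 arrays with it, as were 28.6% of all detected genes. With ritonavir alone it was 2.04 above ethanol. Its relative Ppargc1b read 10.55, 10.57, 9.59, 10.40, 10.51 and 9.80, low on the same pair of arrays as the subunits. Esrra, which encodes ERR alpha, read 10.19, 10.18, 9.71, 10.32, 10.25 and 9.88 and had that order too. Of all detected genes 27.5% had their lowest value on the ritonavir array. A link of these regulators to the subunit values was not tested. The corepressor Nrip1 (-1.41) and Ppard (-1.18) were the lowest of the 18 detected regulators with ritonavir, and Pprc1 stood at 0.79. The mRNAs of Nrf1 (0.05), Tfam (-0.02), Yy1 (-0.17) and Gabpa (0.25) were nearer to ethanol.

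Where a gene had further detected probe sets they mostly gave the same sign: of 70 further probe sets of 45 subunits, 55 did so for ritonavir against ethanol, 67 between the isomers and 63 for t10,c12-CLA against DMSO. The median gap between probe sets of a gene was 0.07, 0.06 and 0.11 log2 units in these comparisons. For tenofovir 50 of 70 shared the sign, and for c9,t11-CLA 41, where the differences themselves are near 0. The actin control probe sets differed between their 3′ and 5′ ends by 0.19 to 0.54 log2 units and those of Gapdh by -0.12 to -0.03, with the actin value of the ritonavir array the lowest. Many subunits lie near the top of the scale, whose highest value is 15.01, and compression of differences there was not tested.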

How the data were processed

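Per the labels' protocols, RNA of 4 replicate experiments was combined for each group, amplified, biotin-labelled and hybridised to 1 Affymetrix mouse array per group. The deposited table holds log2 values of 45101 probe sets on 6 arrays, which the authors made by RMA in Affymetrix Expression Console, per the submitters' processing notes. Its version is not given in the sources used. RMA equalises the arrays' distributions, which removes shifts common to most genes.

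Of the probe sets, 34958 had 1 gene symbol, and 932 had several and were not used, 9 of them of this family. Of several probe sets per gene the one brightest on average stood for it. Differences are between single arrays, counted at 1.5-fold and 2-fold beside the same for all 12386 detected genes. The named genes are those 2-fold apart, the extremes of each complex and list, core subunits and paired isoforms. Symbols follow RefSeq, in which mitochondrially encoded genes are written ND5 and the like. Cox7b is not analysed here. Members, 14 gene lists and motif spellings were chosen with earlier results of these data known. Counting was tested on simulated data. Alternatives were other probe-set choices, detection levels, normalizations and folds. The tools were Python 3.11.15 with pandas 2.3.3, numpy 2.4.6, statsmodels 0.14.6 (lowess) and matplotlib 3.10.9.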

Additional observations from a re-analysis of the deposited data

How the results depend on the processing

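The median difference of the subunits, recomputed under 49 alternatives, ranged from -0.31 to -0.23 for ritonavir against ethanol, from 0.11 to 0.17 for ritonavir with DMSO against ethanol, from 0.38 to 0.41 between the ritonavir arrays, from 0.05 to 0.08 for tenofovir, from -0.02 to 0.01 for c9,t11-CLA (the 1 result whose range spans 0), from -0.27 to -0.23 against DMSO for t10,c12-CLA, and from -0.24 to -0.22 between the isomers. Counts of subunits past the fold stayed within 1.5 times in 46 of 63 alternatives. With a threshold of 2-fold they were 2 in place of 8 for ritonavir, 1 in place of 2 for ritonavir with DMSO, 0 in place of 13 between the ritonavir arrays, 0 in place of 1 between the isomers and 0 in place of 3 for t10,c12-CLA against DMSO. With a lower threshold of 0.32 log2 units they were 33, 12, 57, 23 and 24 in that order, and 1 in place of 0 for tenofovir; the threshold itself makes these changes. Quantile normalization again gave 7 between the ritonavir arrays and 1 for t10,c12-CLA against DMSO, and removal of the lowess trend 7 between the ritonavir arrays. Averaging a gene's probe sets gave 0 between the isomers and 1 for t10,c12-CLA against DMSO. Probe sets without an _s_at, _x_at or _a_at suffix, which exist for 57 subunits, gave 2 between the isomers. Why these counts changed was not tested. With 1 array per group no array can be left out and no error can be given, so a count near the threshold rests on single values. No paired analysis was possible because each group has 1 array and no replicate numbers are shared.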
